A study of Gallus gallus with 21 samples.

Results

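The dermal sheath was compared with the peripheral pulp of the growing feather follicle. Genes entered the comparison when they reached 1 TPM in at least 3 of the 6 libraries of these tissues, which 13537 of the 13815 genes in the table did. TPM is a transcript's share of its library after correction for transcript length. The follicles made contour feathers, were in early growth, and came from untreated male white leghorn chickens aged 1 year. The dermal sheath and the peripheral pulp had 3 libraries each, made from total RNA of the dissected tissue. The same table held 3 libraries each of dermal papilla and central pulp, which entered the statistical fit and are otherwise given only as levels. A separately normalized table held 2 libraries of pulp from early growth follicles. The labels give no genetic modification. They also leave unsaid whether each replicate was a different bird, and the spread behind the p-values is therefore that of these samples and could be technical.

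The feather follicle is a cyclically renewed skin appendage in which mesenchymal tissues instruct an epidermal collar. The dermal papilla sits at the base of the follicle, the dermal sheath wraps around the outside of its lower part, and the pulp fills the core of the growing feather with vascularised mesenchyme. The periphery of the pulp lies against the epithelium that forms the barb ridges, and Wnt, BMP, FGF and hedgehog signals pass between these layers. In mammalian hair follicles the dermal sheath is a contractile, smooth muscle-like layer.

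Both tissues differed in most measured genes. In limma with Benjamini-Hochberg adjustment, 8110 of 13537 genes (59.9%) passed an adjusted p under 0.05, of which 2775 (20.5%) were higher and 5335 (39.4%) lower in the dermal sheath than in peripheral pulp. At least a 2-fold change was seen in 1509 higher genes (11.1%) and 2139 lower genes (15.8%), and at least a 16-fold change in 152 higher and 141 lower genes. Changes are differences on the log2(TPM + 1) scale, sheath minus peripheral pulp. This scale shrinks the changes of genes with low TPM. The median over all genes was -0.21. Scaling the libraries by median-of-ratios moved that median by 0.20 and turned the split into 3780 higher (27.9%) and 3853 lower (28.5%), and quantile normalization moved it by 0.16 and gave 3555 (26.3%) and 4153 (30.7%). Under all 3 scalings 2753 genes (20.3%) were higher and 3765 (27.8%) lower, and no call changed direction under median-of-ratios. The called genes named below were called in the same direction under both rescalings, except where stated. List counts below are to be read against the shares of all genes, 20.5% higher and 39.4% lower. All 3 sheath libraries lay above all 3 pulp libraries in 2945 genes (21.8%) and below them in 5741 genes (42.4%). Of the genes tested, 11667 reached 1 TPM in all 6 libraries and 866 in exactly 3. WDR31, which reached 1 TPM in exactly 3 libraries, 1.01 TPM in the weakest of them, lay just inside the entry rule, and EFCAB11, at 0.998 TPM in the corresponding library, just outside it.

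**Figure D1:**
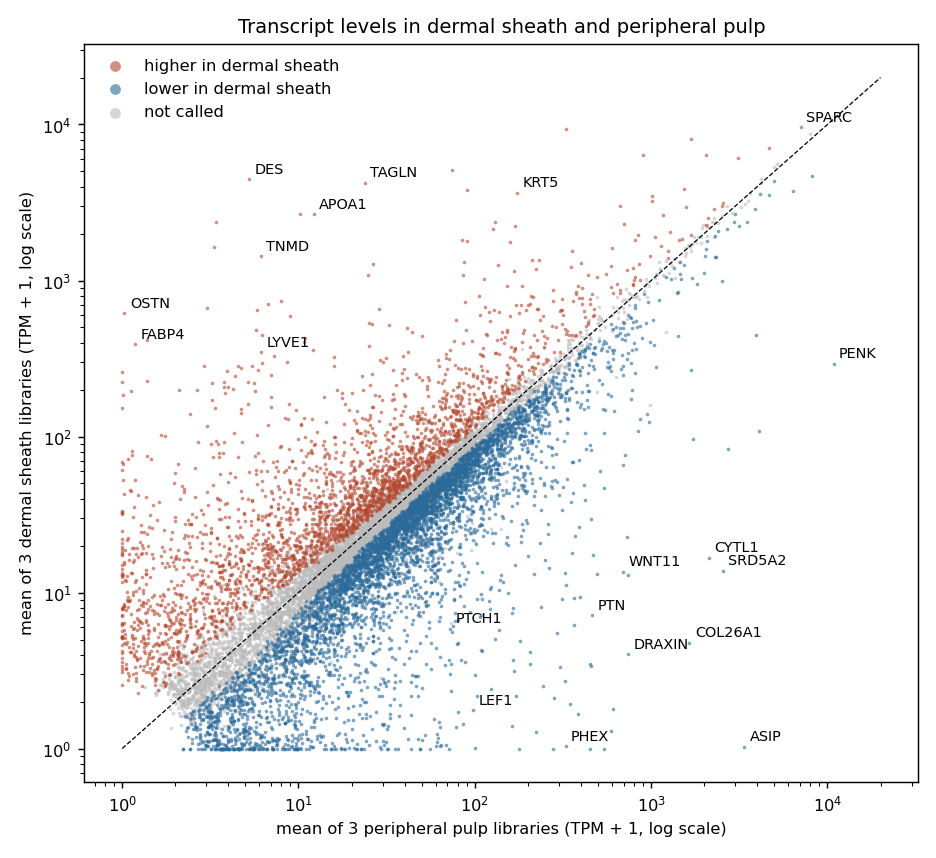
Mean level of each of the 13537 genes, with the dermal sheath on the vertical axis and peripheral pulp on the horizontal axis (TPM + 1, log scales, 3 libraries each). Red points are the 2775 genes called higher in the sheath, blue points the 5335 called lower and grey points the rest. DES, OSTN and TNMD lie far above the dashed line of equal levels, and ASIP, COL26A1 and PHEX far below it.

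The libraries were of similar breadth. Between 12664 and 12856 genes reached 1 TPM in the sheath libraries and between 13017 and 13142 in the pulp libraries. The SD of the log2 difference between replicates was 0.39 to 0.473 among sheath libraries and 0.435 to 0.582 among pulp libraries. TPM keeps no sequencing depth, so the depth behind each value is unknown. Peripheral pulp library 1 stood apart: 62 genes were over 4-fold above both other pulp libraries in it, against 7 and 2 genes in pulp libraries 2 and 3 and 1 to 4 genes in each sheath library. Epidermal genes were among these, and their values are given with the epidermal markers. Values without it are given beside the lists and genes named below that it moved by more than 1.5 times or across the threshold.

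Per-library values below are in TPM and follow the order of replicates 1, 2 and 3. The gene with the largest increase was DES, the muscle intermediate filament desmin, with 4244, 5342 and 3799.8 TPM in the sheath, against 2.76, 4.43 and 5.5 TPM in peripheral pulp (log2 fold change of 9.76 ± 0.27 (SE), adjusted p = 3.2e-10). OSTN, the secreted peptide osteocrin that binds the natriuretic peptide clearance receptor, had 634, 577 and 642 TPM in the sheath, against 0.0266, 0.0333 and 0.0319 TPM in peripheral pulp (9.23 ± 0.14, adjusted p = 5.8e-12). The sheath libraries were uniformly high and the pulp libraries uniformly near 0 for OSTN. Genes ranked by change here and below were chosen among those without overlap, so their separation follows from that choice. Most members named from the lists below had the lowest p-values of their list, which also favours separation. A gene under 1 TPM in all 3 libraries of a tissue passed the entry rule only through the other tissue, which fixes its separation. TNMD, the tendon membrane protein tenomodulin, had 1561, 1402 and 1317 TPM in the sheath, against 4.33, 5.82 and 5.23 TPM in peripheral pulp (7.87 ± 0.19, adjusted p = 1e-10). PCP4, a small calmodulin-binding protein, had 222, 301 and 247 TPM in the sheath and was listed at 0 in all 3 pulp libraries (adjusted p = 2.8e-11). It was also listed at 0 in all dermal papilla and central pulp libraries.

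Among the other genes with the 15 largest increases, ACTA1, ACTG2, MYH11, CNN1, TAGLN and HSPB7 encode contractile or muscle proteins, and their log2 fold changes were between 7.36 ± 0.32 (SE; HSPB7) and 9.44 ± 0.26 (ACTA1). FABP4, the fatty acid carrier of adipocytes, had 365, 422 and 383 TPM in the sheath, against 0, 0 and 0.534 TPM in peripheral pulp (8.40 ± 0.44, adjusted p = 3.7e-08). APOA1, the main protein of high-density lipoprotein, had 3017, 2385 and 2548 TPM in the sheath, against 11.4, 8.04 and 14.1 TPM in peripheral pulp (7.79 ± 0.27, adjusted p = 1.8e-09). Both lipid genes were separated by a wide gap between the tissues. CILP2, a cartilage intermediate layer protein, COL28A1, a collagen, and WFIKKN2, a secreted inhibitor of myostatin and GDF11, completed the set, with log2 fold changes of 8.26 ± 0.22, 7.52 ± 0.32 and 7.36 ± 0.27 (SE). WFIKKN2 varied most within the sheath, at 143, 306 and 139 TPM, against 0, 0.386 and 0 TPM in peripheral pulp. Dermal papilla libraries held WFIKKN2 at 3320.4 to 3950.0 TPM and OSTN at 587 to 927 TPM. TNMD was at 431 to 579 TPM there and APOA1 at 464 to 679.5 TPM, below their sheath levels. In bulk tissue, fewer cells of a type and less RNA per cell cannot be told apart, here and for every gene below.

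**Figure D2:**
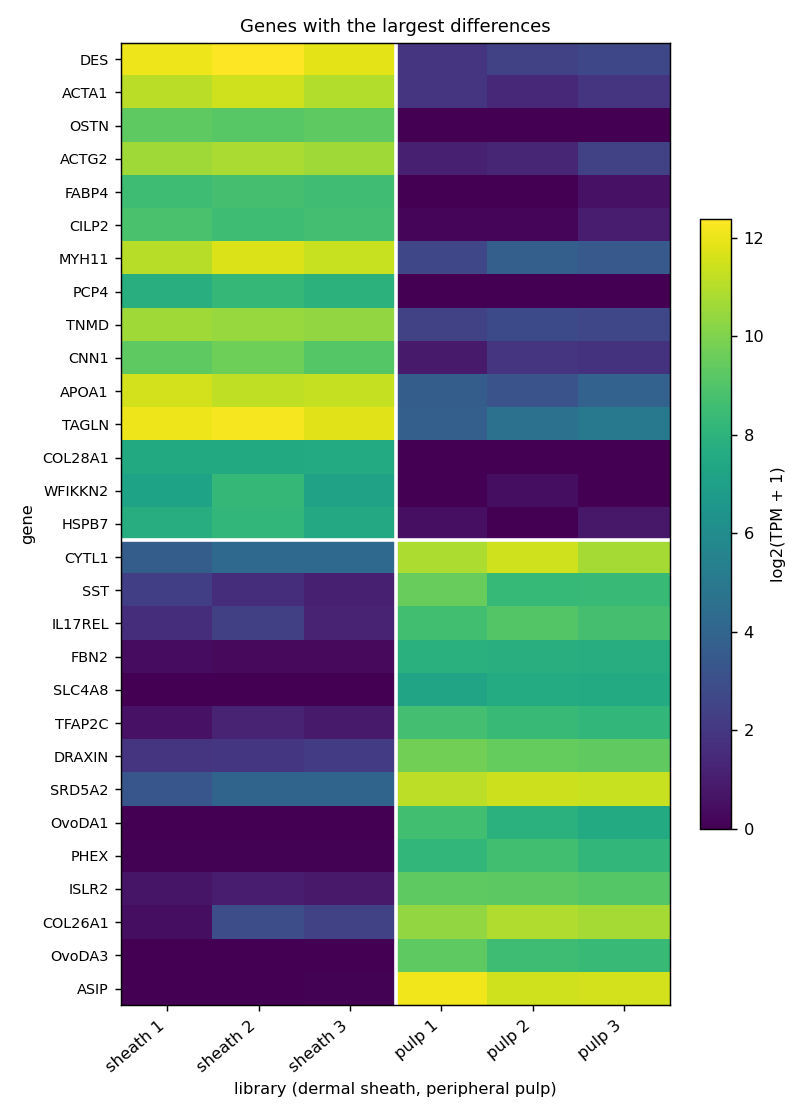
Level of the 15 genes with the largest increase (top) and 14 of the 15 with the largest decrease (bottom) in the sheath, as log2(TPM + 1), in the 3 dermal sheath libraries (left) and the 3 peripheral pulp libraries (right). Within each tissue the libraries differ little next to the gap between tissues, for which these genes were chosen. OvoDA1, OvoDA3 and SLC4A8 are listed at 0 in every sheath library, and PCP4 in every pulp library.

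The largest decrease was in ASIP, the secreted agouti signal that blocks melanocortin signalling in pigment cells. It had 0.00512, 0.00787 and 0.0635 TPM in the sheath, against 4371, 2829 and 2943 TPM in peripheral pulp (log2 fold change of -11.66 ± 0.27 (SE), adjusted p = 1.1e-10). COL26A1, a collagen, had 0.379, 6.48 and 4.43 TPM in the sheath, against 1349.7, 1906 and 1684 TPM in peripheral pulp (-8.74 ± 0.49, adjusted p = 1.7e-07). Sheath library 1 was the lowest for COL26A1, and without it the change was -8.00. PHEX, a membrane peptidase of phosphate balance, had 0.0353, 0.036 and 0.0357 TPM in the sheath, against 292, 394 and 291 TPM in peripheral pulp (-8.29 ± 0.35, adjusted p = 6.6e-09). For both genes the sheath libraries were low and the pulp libraries far above them.

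The next decreases were in secreted peptides, a transporter and an enzyme. The ovodefensin genes OvoDA3 and OvoDA1, which encode antimicrobial peptides first known from avian egg, were listed at 0 in all sheath libraries, against 338 to 637 TPM and 192 to 396 TPM in peripheral pulp (adjusted p = 3.2e-09 and 1.1e-10). SLC4A8, a sodium-coupled bicarbonate transporter, was likewise listed at 0 in the sheath, against 147, 196 and 191 TPM in peripheral pulp (adjusted p = 2.8e-11). Near-identical copies of the ovodefensins can share reads, which makes their single values uncertain. SRD5A2, the enzyme that converts testosterone to dihydrotestosterone, had 8.93, 14.8 and 14.7 TPM in the sheath, against 2259.7, 2781 and 2595 TPM in peripheral pulp (-7.55 ± 0.21, adjusted p = 3.2e-10). SST, the somatostatin precursor, had 3.89, 2.09 and 1.1 TPM in the sheath, against 724, 312 and 331 TPM in peripheral pulp (-7.06 ± 0.55, adjusted p = 1.4e-06). Peripheral pulp library 1 held the highest SST value.

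ISLR2, DRAXIN, TFAP2C, FBN2, IL17REL and CYTL1 were also among the 15 decreases, with log2 fold changes between -8.40 ± 0.20 (SE; ISLR2, a leucine-rich membrane protein of neurons) and -6.98 ± 0.27 (CYTL1, a secreted cytokine-like protein). CYTL1 was the most abundant of these 6, with 11.5, 17.8 and 17.7 TPM in the sheath, against 1838, 2853 and 1669.7 TPM in peripheral pulp. In the separately normalized pulp of early growth follicles, the 15 genes with the largest increase were at 0 to 51.8 TPM (median 2.43 TPM), and the 15 with the largest decrease at 122 to 6137 TPM (median 511 TPM). These levels were not tested against the sheath, because the tables were normalized apart.

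Smooth muscle genes were higher in the sheath almost without exception. Of 21 tested members of the contractile list, 20 were higher and 1 lower, with a median log2 fold change of 4.18 against -0.21 over all genes. Their summed level was 23901 to 29995 TPM in the sheath and 1302 to 1728 TPM in peripheral pulp. High levels of these genes were not particular to the sheath. Dermal papilla libraries held DES at 4214 to 4767 TPM, MYH11 at 4362 to 5269 TPM and ACTA2 at 3734 to 4674 TPM. The papilla levels were not tested against the sheath. MYLK, the kinase that activates smooth muscle myosin, had 288, 349 and 332 TPM in the sheath, against 12.8, 13.4 and 18.2 TPM in peripheral pulp (4.37 ± 0.13 (SE), adjusted p = 2.8e-10). ACTA2, smooth muscle alpha-actin, had 1114, 1323 and 1343 TPM in the sheath, against 113, 145 and 148 TPM in peripheral pulp (3.21 ± 0.13, adjusted p = 2.8e-09). Actin genes are near-identical, and reads can be shared among ACTA1, ACTA2 and ACTG2. MYOCD, the coactivator that switches on smooth muscle genes, was chosen after its values were seen and had 55.5, 80.6 and 61.3 TPM in the sheath, against 0.00737, 0.0148 and 0.0213 TPM in peripheral pulp (6.02 ± 0.30, adjusted p = 1.3e-08). The single lower member was CASQ2, a calcium-storage protein of heart muscle, at 0.908 to 2.18 TPM in the sheath and 4.12 to 5.08 TPM in peripheral pulp.

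Pericyte markers gave mixed results, and few skeletal muscle markers could be tested. RGS5, a signalling regulator of mural cells, had 1819, 1912 and 1719.6 TPM in the sheath, against 61, 80.7 and 108 TPM in peripheral pulp (4.47 ± 0.15 (SE), adjusted p = 8.5e-10). MCAM was also higher (1.34 ± 0.14, adjusted p = 6.8e-06), KCNJ8 was lower (-0.78 ± 0.12, adjusted p = 0.00017), and PDGFRB (adjusted p = 0.42) and ABCC9 (adjusted p = 0.93) were not called, so 2 of 5 tested pericyte markers were higher and 1 lower. PDGFRB, the receptor that recruits pericytes, had 92.8, 93.1 and 90.5 TPM in the sheath, against 52.4, 90.3 and 108 TPM in peripheral pulp, and the groups overlapped. Of the skeletal muscle list only ACTA1 and MB were tested. MYOD1, TNNT3 and TNNC2 did not pass the entry rule. The other members, such as MYOG, CKM and TTN, had no entry under their symbols, so their levels are unknown. The oxygen carrier MB was at 1.11, 3.52 and 2.53 TPM in the sheath, against 0.978, 0 and 0 TPM in peripheral pulp (1.36 ± 0.44, adjusted p = 0.02). The call of MB was lost without sheath library 2 (1.12, adjusted p = 0.077), sheath library 3 (1.30, adjusted p = 0.055), pulp library 2 (1.20, adjusted p = 0.066) or pulp library 3 (1.20, adjusted p = 0.065). The part of skeletal muscle fibres in the ACTA1 level was not tested.

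Tendon and cartilage genes were the next group that was higher in the sheath. Of 17 tested members, 12 were higher and 2 lower, with a median log2 fold change of 3.02, and their summed level was 4551 to 4708 TPM in the sheath and 954 to 987 TPM in peripheral pulp. SCX, the transcription factor scleraxis of tendon progenitors, had 72.6, 56.4 and 72.9 TPM in the sheath and was listed at 0 in all pulp libraries (adjusted p = 7e-11). MKX, mohawk, another tendon transcription factor, had 15.4, 14.9 and 14.0 TPM in the sheath, against 0.0324, 0.0138 and 0.0142 TPM in peripheral pulp (3.95 ± 0.16 (SE), adjusted p = 2.3e-09). Both factors passed the entry rule only through their sheath libraries, so their separation follows from that rule. CILP, a cartilage matrix protein, had 441, 483 and 513 TPM in the sheath, against 4.02, 6.14 and 3.98 TPM in peripheral pulp (6.41 ± 0.26, adjusted p = 4.8e-09). The filament-forming matrilin MATN2 was higher as well (6.04 ± 0.17, adjusted p = 1.9e-10). The 2 lower members encode cartilage matrix proteins: COL2A1 was at 0 to 0.204 TPM in the sheath and 25.1 to 34.5 TPM in peripheral pulp, and HAPLN1 at 0.673 to 2.98 TPM in the sheath and 26.6 to 40.1 TPM in peripheral pulp.

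The small leucine-rich proteoglycans, which bind collagen fibrils and growth factors, followed the same direction. Of 11 tested members 8 were higher and 1 lower (median 1.82), with a summed level of 11282 to 14173 TPM in the sheath and 4802 to 5234 TPM in peripheral pulp. DCN, decorin, had 5506, 6209 and 7312 TPM in the sheath, against 2062, 1981 and 2126 TPM in peripheral pulp (1.62 ± 0.13 (SE), adjusted p = 9.5e-07). FMOD, fibromodulin of tendon, had 288, 308 and 296 TPM in the sheath, against 10.6, 2.08 and 2.83 TPM in peripheral pulp (5.85 ± 0.38, adjusted p = 2e-07), and 6.44 without pulp library 1, which held the highest pulp value. PODN (5.44 ± 0.15, adjusted p = 1.7e-10), ASPN (2.83 ± 0.13, adjusted p = 7.9e-09), ECM2 (2.34 ± 0.15, adjusted p = 1.1e-07) and PRELP (1.90 ± 0.14, adjusted p = 4.2e-07) were higher with no overlap. The lower member was TSKU, tsukushi, a secreted modulator of BMP and Wnt signals, at 112 to 119 TPM in the sheath and 215 to 283 TPM in peripheral pulp.

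Collagens divided between the tissues. The collagen list held fibrillar and fibril-associated chains and also others, such as COL6A1, COL8A1, COL26A1 and COL28A1. Of its 17 tested members, 6 were higher and 8 lower, against 20.5% and 39.4% of all genes. The counts were 7 and 5 under median-of-ratios and 5 and 9 under quantile normalization. Their summed level overlapped, at 21001 to 21902 TPM in the sheath and 21519 to 26329 TPM in peripheral pulp. COL12A1, a fibril-associated collagen of load-bearing tissue, had 623, 753 and 749.8 TPM in the sheath, against 177, 182 and 256 TPM in peripheral pulp (1.80 ± 0.15 (SE), adjusted p = 8.3e-07). COL14A1, its close relative, had 25.5, 27.5 and 31.7 TPM in the sheath, against 172, 216 and 191 TPM in peripheral pulp (-2.73 ± 0.11, adjusted p = 1.9e-09). These related collagens therefore changed in opposite directions, each with no overlap. COL13A1, a transmembrane collagen, was lower (-4.58 ± 0.18, adjusted p = 2.2e-09), COL20A1 higher (3.88 ± 0.19, adjusted p = 9.6e-09). COL1A2, a chain of the main fibrillar collagen, chosen after its values were seen, had 9168, 8721 and 8309 TPM in the sheath and 7353, 7227 and 9202 TPM in peripheral pulp, with overlap (0.15 ± 0.10, adjusted p = 0.24). It was called higher under median-of-ratios (0.36). The other fibrillar chains of the list, chosen likewise, were lower or not called as deposited. COL5A1 was lower (-1.27 ± 0.11, adjusted p = 1.4e-06). COL5A2 was not called (-0.34 ± 0.15, adjusted p = 0.063), but was called lower under quantile normalization. COL1A1 (-0.52 ± 0.19, adjusted p = 0.037) and COL3A1 (-0.41 ± 0.08, adjusted p = 0.0011) were lower as deposited but not called under median-of-ratios.

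Of 14 tested elastic fibre genes, 3 were higher and 8 lower in the sheath (median -0.42), against 20.5% and 39.4% of all genes. FBN3, a fibrillin of microfibrils, had 10.1, 12.7 and 12.9 TPM in the sheath, against 652, 767 and 807 TPM in peripheral pulp (-5.85 ± 0.12 (SE), adjusted p = 2.8e-11). FBN2, another fibrillin, had 0.312, 0.261 and 0.242 TPM in the sheath, against 233, 225 and 207 TPM in peripheral pulp (-7.45 ± 0.17, adjusted p = 5.2e-11). MFAP2, a microfibril-associated protein, was lower (-2.63 ± 0.10, adjusted p = 1.6e-09), while MFAP5, of the same class, had 1269, 1311 and 1302 TPM in the sheath, against 459, 386 and 353 TPM in peripheral pulp (1.70 ± 0.13, adjusted p = 4.1e-07). FBN3 was far below the pulp libraries without overlap. FBN2 was near 0 in every sheath library and passed the entry rule only through peripheral pulp, so its separation follows from that rule. FBN1, the remaining tested fibrillin, chosen after its values were seen, was abundant in both tissues. It had 509, 487 and 488 TPM in the sheath, against 526, 677 and 793 TPM in peripheral pulp (-0.41 ± 0.12, adjusted p = 0.014). FBN1 was not called under median-of-ratios.

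Basement membrane genes were higher in 8 and lower in 4 of 14 tested members, against 20.5% and 39.4% of all genes. Under median-of-ratios the counts were 8 and 2. COL4A1, a chain of the sheet-forming collagen, had 807, 843 and 821 TPM in the sheath, against 301, 385 and 437 TPM in peripheral pulp (1.15 ± 0.12 (SE), adjusted p = 7.5e-06). LAMB2, a laminin chain of muscle and nerve basement membranes, was higher (1.90 ± 0.22, adjusted p = 1.7e-05). NID1, nidogen, which links laminin to collagen, had 241, 273 and 277 TPM in the sheath, against 1563, 1714 and 1756 TPM in peripheral pulp (-2.67 ± 0.09, adjusted p = 8e-10). FREM1, which joins epidermal basement membrane to dermis, had 8.52, 10.4 and 10.6 TPM in the sheath, against 109.8, 129 and 131 TPM in peripheral pulp (-3.52 ± 0.11, adjusted p = 4.5e-10). COL4A1 and LAMB2 were high in the sheath libraries and NID1 and FREM1 high in the pulp libraries, each without overlap.

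Among matrix proteases and their inhibitors, 11 of 29 tested members were higher and 13 lower, against 20.5% and 39.4% of all genes. ADAMTS17, a secreted metalloproteinase linked to microfibrils, had 0.415, 0.799 and 0.913 TPM in the sheath, against 77.7, 70 and 89.3 TPM in peripheral pulp (-5.55 ± 0.15 (SE), adjusted p = 1.7e-10). ADAMTS19 (-3.95 ± 0.15, adjusted p = 2.1e-09), ADAMTS12 (-4.66 ± 0.27, adjusted p = 5.5e-08) and ADAMTS3 (-1.95 ± 0.10, adjusted p = 1.3e-08) were also lower. TIMP2, an inhibitor of matrix metalloproteinases, had 3298, 2771 and 2896 TPM in the sheath, against 565, 691 and 729 TPM in peripheral pulp (2.18 ± 0.10, adjusted p = 8.6e-09). MMP23B was higher too (1.90 ± 0.09, adjusted p = 9.6e-09).

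Bone, mineral and calcium genes were higher in 8 and lower in 3 of 12 tested members (median 0.82). MGP, matrix Gla protein, which blocks calcification of soft tissue, had 751, 767 and 600.2 TPM in the sheath, against 5.22, 3.6 and 8.34 TPM in peripheral pulp (6.77 ± 0.23 (SE), adjusted p = 1.2e-09). POSTN, periostin of tendon and periosteum, chosen after its values were seen, had 238, 468 and 374 TPM in the sheath, against 4.58, 13.0 and 15.7 TPM in peripheral pulp (4.99 ± 0.46, adjusted p = 5.4e-06). The 3 lower members were PHEX, ALPL and PTHLH. ALPL, the alkaline phosphatase that also marks dermal papilla of hair, had 52.2, 40.6 and 45.3 TPM in the sheath, against 492, 637 and 485 TPM in peripheral pulp (-3.51 ± 0.12, adjusted p = 8.2e-10). PTHLH, a secreted parathyroid hormone relative, had 50.9, 46.2 and 47.4 TPM in the sheath, against 195, 218 and 149.5 TPM in peripheral pulp (-1.92 ± 0.13, adjusted p = 1.8e-07).

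Adipocyte and lipid genes were higher in 10 and lower in 4 of 20 tested members (median 0.87; 12 and 4 under either rescaling). Their summed level was 7019 to 7633 TPM in the sheath and 873 to 1789 TPM in peripheral pulp, where library 1 was the highest. Most of the sum of pulp library 1 was FABP5, chosen after its values were seen. It had 911, 651 and 798 TPM in the sheath, against 1098, 197 and 180.3 TPM in peripheral pulp, and was not called (1.20 ± 0.69, adjusted p = 0.16). Without pulp library 1 there were 11 higher and 4 lower members (median 0.82). ADIPOQ, the hormone adiponectin, had 2192, 2274 and 1982 TPM in the sheath, against 96.8, 134 and 147 TPM in peripheral pulp (4.10 ± 0.13 (SE), adjusted p = 3.2e-10). PLIN2, a lipid droplet coat protein, had 168, 201 and 194 TPM in the sheath, against 62.7, 73.7 and 68.9 TPM in peripheral pulp (1.44 ± 0.09, adjusted p = 8.1e-08). CAV1 (1.94 ± 0.14, adjusted p = 2.7e-07) and FABP3 (3.26 ± 0.24, adjusted p = 3.1e-07) were also higher. PPARG, chosen after its values were seen, was not called as deposited (0.50 ± 0.21, adjusted p = 0.054) but was called higher under either rescaling. The 4 lower members were LPL, FASN, SCD and APOD, of which LPL releases fatty acids from lipoproteins and FASN and SCD make fatty acids.

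Cell cycle genes were lower in the sheath in every tested member. All 35 were lower, against 39.4% of all genes, with a median log2 fold change of -1.57, and 35 were lower under both rescalings and without pulp library 1. Their summed level was 683 to 826 TPM in the sheath and 2080.4 to 2203 TPM in peripheral pulp. ANLN, a scaffold of the cleavage furrow, had 7.68, 7.56 and 7.81 TPM in the sheath, against 62.8, 67.4 and 55.8 TPM in peripheral pulp (-2.86 ± 0.11 (SE), adjusted p = 2.3e-09). MCM6, a subunit of the replicative helicase, had 27.1, 24.3 and 30.6 TPM in the sheath, against 71.9, 77.2 and 75.0 TPM in peripheral pulp (-1.42 ± 0.09, adjusted p = 8.9e-08). CCNB2, a mitotic cyclin, had 40.1, 35.8 and 45.2 TPM in the sheath, against 116, 124 and 130.1 TPM in peripheral pulp (-1.59 ± 0.09, adjusted p = 3.6e-08). Replication and mitosis genes were both low in the sheath libraries, with no overlap for any of these 3 genes.

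Of the 4 tested cyclin-kinase inhibitors, 3 were higher and CDKN2C was not called (adjusted p = 0.2). CDKN1B, the inhibitor p27, had 179, 169.6 and 165 TPM in the sheath, against 106, 92.4 and 102 TPM in peripheral pulp (0.77 ± 0.08 (SE), adjusted p = 7.2e-06). CDKN2B was higher at low levels (1.47 ± 0.22, adjusted p = 0.00011). CDKN1A (0.46 ± 0.16, adjusted p = 0.027) lost its call without sheath library 1 (0.39, adjusted p = 0.087) and without pulp library 1 (0.36, adjusted p = 0.089).

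Of 14 tested Wnt ligands and R-spondins, 7 were lower and 1 higher, against 39.4% and 20.5% of all genes, while 3 were higher without pulp library 1 and under either rescaling, and 2 without sheath library 2. WNT11, a ligand of the non-canonical branch, had 12.1, 13.6 and 12.1 TPM in the sheath, against 659, 864 and 543 TPM in peripheral pulp (-5.64 ± 0.16 (SE), adjusted p = 2.5e-10). WNT5A, of the same branch, had 43.5, 36.8 and 34.1 TPM in the sheath, against 367, 456 and 435 TPM in peripheral pulp (-3.42 ± 0.11, adjusted p = 6.2e-10). The higher ligand was WNT2, with 8.15, 7.78 and 7.98 TPM in the sheath, against 0, 0 and 0.202 TPM in peripheral pulp (3.08 ± 0.18, adjusted p = 6e-08). WNT11 and WNT5A were abundant in every pulp library, whereas WNT2 stayed below 10 TPM even in the sheath. WNT6 (-2.39 ± 0.35, adjusted p = 9.8e-05) and the R-spondins RSPO1 (-1.85 ± 0.21, adjusted p = 1.4e-05) and RSPO4 (-2.12 ± 0.38, adjusted p = 0.00048), which amplify Wnt signals, were lower.

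Wnt receptors were higher in 3 and lower in 6 of 15 tested members, which is close to the 20.5% and 39.4% of all genes, so the counts set the receptors apart in neither direction. LGR5, the R-spondin receptor and stem cell marker, had 9.4, 10.9 and 12.6 TPM in the sheath, against 158, 128 and 128 TPM in peripheral pulp (-3.54 ± 0.25 (SE), adjusted p = 3.1e-07). FZD10 was lower (-3.01 ± 0.19, adjusted p = 1.1e-07), as was the WNT5A receptor ROR1, at 22.4 to 27.7 TPM in the sheath and 49.1 to 57.7 TPM in peripheral pulp (adjusted p = 6.6e-06). FZD4 had 57.8, 57.4 and 53.1 TPM in the sheath, against 15.8, 14.1 and 13.7 TPM in peripheral pulp (1.88 ± 0.12, adjusted p = 1.4e-07), and RYK and LRP6 were the other higher receptors.

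Secreted Wnt antagonists split by member, with 5 of 13 higher and 6 lower, against 20.5% and 39.4% of all genes. DKK3, a divergent member of the dickkopf family, had 1242, 1330.3 and 1372 TPM in the sheath, against 67.3, 94.1 and 97.9 TPM in peripheral pulp (3.93 ± 0.14 (SE), adjusted p = 1e-09). SFRP5, a Wnt-binding decoy, had 9.46 to 14.1 TPM in the sheath and was listed at 0 in all pulp libraries (adjusted p = 3.4e-08). SOSTDC1, an inhibitor of Wnt and BMP signals, had 87.1, 89.2 and 112 TPM in the sheath, against 1584, 1838 and 1746 TPM in peripheral pulp (-4.16 ± 0.12, adjusted p = 2.8e-10). Of the tested antagonists, DKK3 was the most abundant in the sheath and SOSTDC1 in peripheral pulp. Neither was particular to that tissue, as dermal papilla libraries held DKK3 at 1164 to 1348 TPM and SOSTDC1 at 1078 to 1403 TPM. FRZB, chosen after its values were seen, was at 737 to 789 TPM in the sheath and 159 to 505 TPM in peripheral pulp (1.43 ± 0.33, adjusted p = 0.0034). DKK1 had 0, 1.42 and 0 TPM in the sheath, against 52.1, 71.2 and 62.5 TPM in peripheral pulp (-5.54 ± 0.39, adjusted p = 2.8e-07). APCDD1 (-2.47 ± 0.14, adjusted p = 4.5e-08) and DRAXIN (-7.52 ± 0.15, adjusted p = 2.8e-11) were lower.

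Wnt targets and transducers were lower in 9 and higher in 1 of 12 tested members (median -1.80). LEF1, the transcription factor that carries the canonical signal, had 0.402, 0.799 and 1.06 TPM in the sheath, against 117, 88 and 86.9 TPM in peripheral pulp (-5.81 ± 0.21 (SE), adjusted p = 1.1e-09). SP5, a direct target, had 0.306, 0 and 0 TPM in the sheath, against 53.6, 48.4 and 79.1 TPM in peripheral pulp (-5.78 ± 0.21, adjusted p = 1.2e-09). AXIN2, the feedback inhibitor used as a pathway readout, had 20.4, 19.5 and 19.1 TPM in the sheath, against 131, 155 and 164 TPM in peripheral pulp (-2.86 ± 0.12, adjusted p = 4e-09). The transducer and the readout genes were low in all sheath libraries together. NKD1 (-3.65 ± 0.22, adjusted p = 6.2e-08), TNFRSF19 (-2.30 ± 0.11, adjusted p = 6.6e-09) and CTNNB1, beta-catenin itself (-1.30 ± 0.05, adjusted p = 2.8e-09), were lower. The higher member was MYC, a growth regulator with many other inputs, at 36.2 to 44.1 TPM in the sheath and 23.2 to 26.4 TPM in peripheral pulp.

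**Figure D3:**
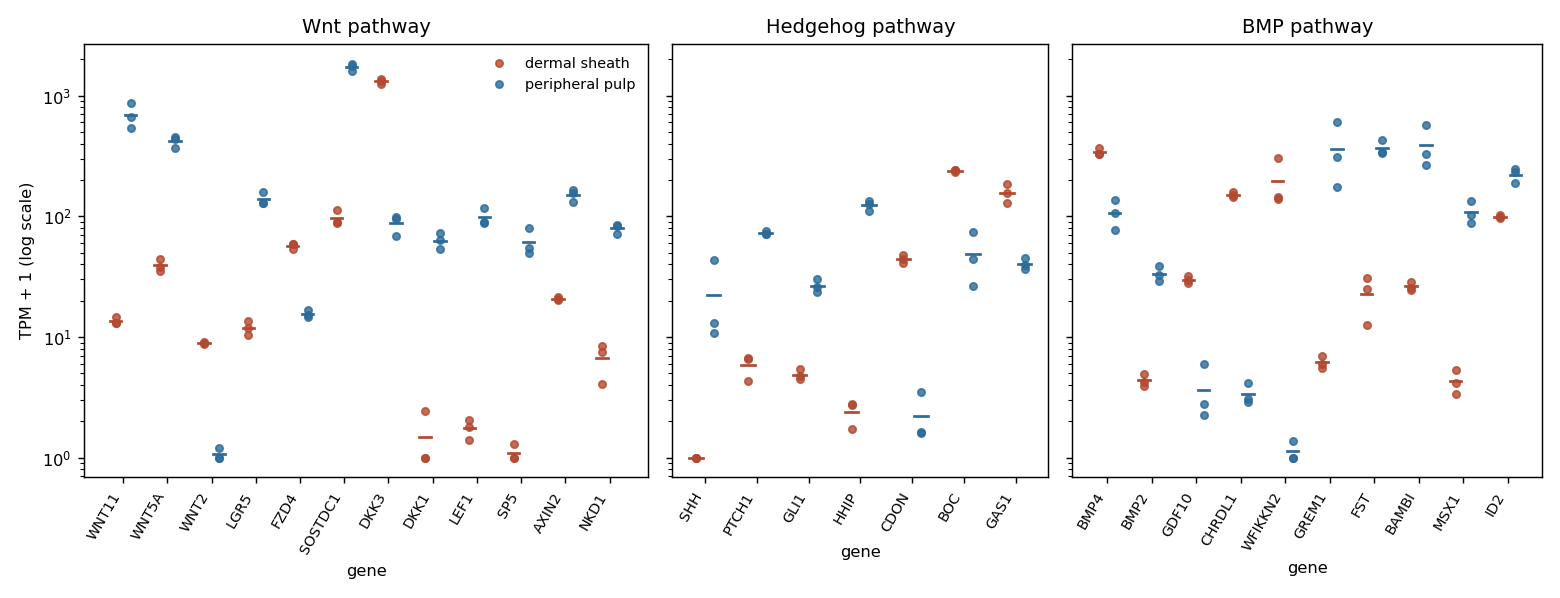
Level (TPM + 1, log scale) of chosen Wnt, hedgehog and BMP genes in each of the 3 dermal sheath libraries (red, left of each pair) and the 3 peripheral pulp libraries (blue, right), with bars at the group means of TPM + 1. WNT11, LEF1, PTCH1, HHIP and GREM1 sit lower in every sheath library, and DKK3, CDON, BOC and CHRDL1 sit higher.

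Hedgehog target genes were lower in the sheath, while co-receptors were higher. Of 16 tested pathway members 9 were lower and 3 higher (7 and 3 under either rescaling), with a median of -1.06. PTCH1, the receptor that is itself induced by the signal, had 3.32, 5.67 and 5.57 TPM in the sheath, against 70.9, 70.3 and 73.9 TPM in peripheral pulp (-3.66 ± 0.16 (SE), adjusted p = 4.5e-09). HHIP, a decoy receptor that is also a target, had 0.718, 1.78 and 1.72 TPM in the sheath, against 109, 133 and 126 TPM in peripheral pulp (-5.71 ± 0.20, adjusted p = 7.7e-10). GLI1, the target transcription factor, had 4.38, 3.75 and 3.5 TPM in the sheath, against 22.7, 24.8 and 29.1 TPM in peripheral pulp (-2.44 ± 0.14, adjusted p = 4.7e-08). All 3 readout genes were low throughout the sheath.

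The 3 higher members, CDON, BOC and GAS1, are surface proteins that bind hedgehog ligand together with PTCH1. CDON had 46.9, 39.9 and 43.1 TPM in the sheath, against 0.606, 0.624 and 2.47 TPM in peripheral pulp (4.41 ± 0.28 (SE), adjusted p = 1e-07). GAS1 had 183, 128 and 154 TPM in the sheath, against 35.6, 44.3 and 38.3 TPM in peripheral pulp (1.94 ± 0.17, adjusted p = 1.6e-06). BOC, named to complete the set, had 234, 242 and 239 TPM in the sheath, against 25.3, 43.6 and 73.8 TPM in peripheral pulp (2.43 ± 0.29, adjusted p = 2.5e-05). All were high in every sheath library. The ligand SHH, chosen after its values were seen, was listed at 0 in all sheath libraries, against 42.6, 9.85 and 12.0 TPM in peripheral pulp (adjusted p = 3.4e-06). Pulp library 1, which also had the most epidermal transcripts, held the highest SHH value. SHH was still called lower without it (adjusted p = 6.9e-08), and the part of epithelial cells in the SHH level was not tested. SMO, the signal transducer, was not called (-0.31 ± 0.13, adjusted p = 0.059), but was called lower without pulp library 1 (-0.42, adjusted p = 0.019).

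BMP ligands differed by member, with 6 of 12 higher and 5 lower, against 20.5% and 39.4% of all genes. BMP4 had 364, 325 and 329 TPM in the sheath, against 75.8, 106 and 136 TPM in peripheral pulp (1.71 ± 0.18 (SE), adjusted p = 8.1e-06). BMP2, its close relative, had 3.27, 2.92 and 3.97 TPM in the sheath, against 37.8, 31.9 and 27.9 TPM in peripheral pulp (-2.93 ± 0.29, adjusted p = 4.1e-06). BMP4 was thus the more abundant of these ligands in both tissues and was on the sheath side, while BMP2 was on the pulp side. GDF10 (3.16 ± 0.30, adjusted p = 2.9e-06) and INHBA, the activin A subunit (1.95 ± 0.25, adjusted p = 3.5e-05), were higher, and GDF3 (-3.39 ± 0.17, adjusted p = 1.4e-08) and GDF11 (-2.41 ± 0.24, adjusted p = 4.2e-06) lower.

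BMP antagonists and modulators were higher in 8 and lower in 5 of 18 tested members, against 20.5% and 39.4% of all genes. CHRDL1, a chordin-like BMP-binding protein, had 144, 159 and 148 TPM in the sheath, against 2.05, 1.89 and 3.13 TPM in peripheral pulp (5.51 ± 0.16 (SE), adjusted p = 2.1e-10). GREM1, gremlin, which binds BMP2 and BMP4, had 5.01, 4.55 and 5.98 TPM in the sheath, against 175, 311 and 601 TPM in peripheral pulp (-5.70 ± 0.37, adjusted p = 2.9e-07). FST, follistatin, which binds activins, had 11.5, 24.1 and 30.1 TPM in the sheath, against 425, 343 and 332 TPM in peripheral pulp (-4.10 ± 0.27, adjusted p = 2.6e-07). Among these, CHRDL1 was the more abundant in the sheath, and GREM1 and FST in peripheral pulp. FSTL1 and NBL1, chosen after their values were seen, were above all of them in both tissues. FSTL1 averaged 1119.6 TPM in the sheath and 2005 TPM in peripheral pulp, and NBL1 460.0 and 663 TPM. BAMBI, a decoy receptor, was lower (-3.81 ± 0.22, adjusted p = 7.3e-08) and SMOC2 higher (4.46 ± 0.20, adjusted p = 6e-09).

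BMP receptors and targets were lower in 6 and higher in 2 of 16 tested members, against 39.4% and 20.5% of all genes. Under median-of-ratios 4 were higher. The lower count is near the share of all genes, and no direction is drawn for the list. MSX1, a BMP-responsive homeobox gene, had 4.36, 2.39 and 3.18 TPM in the sheath, against 101, 133 and 86.4 TPM in peripheral pulp (-4.65 ± 0.22 (SE), adjusted p = 7.9e-09). ID2 (-1.15 ± 0.12, adjusted p = 8.8e-06) and SMAD6 (-1.17 ± 0.10, adjusted p = 1.1e-06), both used as pathway readouts, were lower, as was the activin receptor ACVR2B (-4.12 ± 0.36, adjusted p = 1.4e-06). BMPR1A, the receptor that binds BMP2 and BMP4, was higher (0.62 ± 0.10, adjusted p = 0.00027). Other ID genes, chosen after their values were seen, were mixed. ID1 (0.07 ± 0.19, adjusted p = 0.76) and ID3 (-0.13 ± 0.19, adjusted p = 0.56) were not called, and ID4 was lower (-0.87 ± 0.20, adjusted p = 0.003).

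Genes of the TGF-beta pathway were higher in 7 and lower in 2 of 11 tested members (8 and 1 under median-of-ratios, 7 and 1 under quantile normalization), with a median of 0.89. TGFB2 had 41.1, 43.4 and 44.7 TPM in the sheath, against 2.29, 1.42 and 2.41 TPM in peripheral pulp (3.87 ± 0.18 (SE), adjusted p = 7.9e-09). TGFB3 had 233, 221 and 213 TPM in the sheath, against 92.2, 126 and 139.8 TPM in peripheral pulp (0.91 ± 0.15, adjusted p = 0.00029). CTGF, a target of TGF-beta and of mechanical signalling, had 693, 644 and 759 TPM in the sheath, against 137, 173 and 283 TPM in peripheral pulp (1.88 ± 0.28, adjusted p = 0.00014). These ligands, the receptors TGFBR1 (0.52 ± 0.09, adjusted p = 0.00038) and TGFBR3 (1.27 ± 0.19, adjusted p = 0.00015) and this target were all on the sheath side. High CTGF was not particular to the sheath, as central pulp libraries held it at 465 to 752 TPM. TGFBI (0.08 ± 0.19, adjusted p = 0.75) and LTBP1 (0.32 ± 0.20, adjusted p = 0.19), chosen after their values were seen, were not called. LTBP1 was called higher under median-of-ratios. The lower members were SMAD3 (-1.20 ± 0.20, adjusted p = 0.00026), a signal transducer, and TGFB1, which averaged 109 TPM in the sheath and 141 TPM in peripheral pulp with overlap (adjusted p = 0.023). TGFB1 was not called under either rescaling, and the number of lower members was 1 without sheath library 2 or 3 or pulp library 2 or 3.

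FGF ligands and receptors were higher in 7 and lower in 4 of 13 tested members, against 20.5% and 39.4% of all genes. FGF10, a mesenchymal signal to epithelium, had 124, 169 and 190.4 TPM in the sheath, against 4.27, 3.66 and 4.56 TPM in peripheral pulp (4.96 ± 0.33 (SE), adjusted p = 2.2e-07). FGF7, of the same subfamily, had 322, 329.6 and 332 TPM in the sheath, against 87.7, 116 and 129 TPM in peripheral pulp (1.58 ± 0.12, adjusted p = 3.9e-07). FGFR2, whose epithelial isoform receives both ligands, had 35.6, 35.0 and 38.4 TPM in the sheath, against 147, 171 and 199 TPM in peripheral pulp (-2.21 ± 0.11, adjusted p = 1.8e-08). These values are for the whole FGFR2 gene, and its isoforms were not analysed here. FGFR3 was also lower (-2.94 ± 0.16, adjusted p = 2.3e-08). The other receptor genes, chosen after their values were seen, were mixed. FGFR1 was higher, with 118, 101 and 109 TPM in the sheath, against 39.6, 52.5 and 76.7 TPM in peripheral pulp (0.99 ± 0.21, adjusted p = 0.0017). FGFRL1 was lower (-0.66 ± 0.20, adjusted p = 0.012), and FGFR4 was not called (0.39 ± 0.26, adjusted p = 0.22). Of 9 tested feedback targets of the pathway, 4 were higher and 4 lower, against 20.5% and 39.4% of all genes. SPRY1 (2.42 ± 0.19, adjusted p = 7.4e-07) and ETV4 (3.26 ± 0.29, adjusted p = 1.7e-06) were among the higher, ETV5 (-0.88 ± 0.19, adjusted p = 0.0017) among the lower.

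Notch pathway genes were higher in 4 and lower in 6 of 16 tested members, near the 20.5% and 39.4% of all genes, and 2 were lower under median-of-ratios, 3 under quantile normalization and 3 without pulp library 3. HEY2, a target, had 13.4, 8.09 and 13.9 TPM in the sheath, against 54.3, 48.7 and 77.1 TPM in peripheral pulp (-2.26 ± 0.20 (SE), adjusted p = 2e-06). HES1, another target, had 73.7, 67.5 and 87.1 TPM in the sheath, against 29.2, 36.2 and 31.5 TPM in peripheral pulp (1.21 ± 0.13, adjusted p = 8.8e-06). The targets thus changed in opposite directions. The ligand JAG2 was higher (1.15 ± 0.12, adjusted p = 4.5e-06). NRARP, a feedback inhibitor, was lower (-0.46 ± 0.11, adjusted p = 0.003) but not called under median-of-ratios (-0.25, adjusted p = 0.06).

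Other growth factor systems were divided as well. Of 20 tested IGF, PDGF, HGF and pleiotrophin genes, 7 were higher and 7 lower, against 20.5% and 39.4% of all genes. Under either rescaling 10 were higher and 7 lower. MDK, the heparin-binding factor midkine, had 144, 152 and 139 TPM in the sheath, against 614, 676 and 543 TPM in peripheral pulp (-2.06 ± 0.10 (SE), adjusted p = 9.4e-09). PTN, pleiotrophin, its only relative, was chosen after its values were seen and had 0.0944, 7.43 and 10.9 TPM in the sheath, against 491, 373 and 522 TPM in peripheral pulp (-6.58 ± 0.70, adjusted p = 1.8e-05). ALK, a receptor that both can bind in mammals, had 0.0482, 0.0539 and 0.0566 TPM in the sheath, against 32.9, 22.6 and 33.0 TPM in peripheral pulp (-4.84 ± 0.20, adjusted p = 3.5e-09). PTN and ALK were low in all sheath libraries, while MDK was lower than in peripheral pulp but still at 139 to 152 TPM. IGFBP7 (2.60 ± 0.14, adjusted p = 2.1e-08) and PDGFC (1.58 ± 0.12, adjusted p = 5e-07) were higher, and IGFBP4 (-1.68 ± 0.11, adjusted p = 9.2e-08) and the fibroblast receptor PDGFRA (-1.52 ± 0.14, adjusted p = 2.2e-06) lower.

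Retinoid genes were higher in 6 and lower in 9 of 18 tested members (7 and 6 under either rescaling), against 20.5% and 39.4% of all genes as deposited. CYP26B1, which degrades retinoic acid, had 45.3, 39.8 and 38.0 TPM in the sheath, against 294, 263 and 337 TPM in peripheral pulp (-2.83 ± 0.17 (SE), adjusted p = 6.2e-08). ALDH1A2, which makes retinoic acid, had 8.85, 11.1 and 8.47 TPM in the sheath, against 2.38, 1.58 and 0.996 TPM in peripheral pulp (2.01 ± 0.21, adjusted p = 6.3e-06). ALDH1A2 was thus on the sheath side and CYP26B1 on the pulp side. Other synthesis genes, chosen after their values were seen, divided between the tissues. ALDH1A3 was higher (1.86 ± 0.41, adjusted p = 0.0022) and ALDH1A1 lower (-2.90 ± 0.32, adjusted p = 1.1e-05). RDH10 was lower (-0.68 ± 0.22, adjusted p = 0.018) but not called under either rescaling. CRABP-I, a retinoic acid carrier (-5.79 ± 0.47, adjusted p = 8.7e-07), STRA6, a vitamin A importer (-3.46 ± 0.29, adjusted p = 1.1e-06), and CYP27C1, a vitamin A desaturase (-3.38 ± 0.29, adjusted p = 1.5e-06), were lower, and DHRS3, a retinal reductase, was higher (1.67 ± 0.14, adjusted p = 1.2e-06).

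Axon guidance genes, many of which also direct mesenchymal and vascular cells, were higher in 11 and lower in 24 of 50 tested members (median -0.46), not far from the 20.5% and 39.4% of all genes, and no direction is drawn for the list. EFNB1, an ephrin ligand, had 86.8, 76.6 and 83.7 TPM in the sheath, against 388, 477 and 419.9 TPM in peripheral pulp (-2.36 ± 0.09 (SE), adjusted p = 2.5e-09). NRP2, a semaphorin co-receptor, was lower (-2.13 ± 0.11, adjusted p = 1.8e-08), as was the semaphorin receptor PLXNC1 (-3.65 ± 0.19, adjusted p = 2e-08). NTN4, a netrin of basement membranes, had 30.8, 32.5 and 24.8 TPM in the sheath, against 0.234, 0.203 and 0 TPM in peripheral pulp (4.73 ± 0.22, adjusted p = 8.3e-09). EFNB1 and NRP2 were separated between the tissues in every library. PLXNC1 and NTN4 passed the entry rule only through their higher tissue, so their separation follows from that rule.

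Of 45 tested mesenchymal patterning factors, 25 were lower and 10 higher in the sheath (median -0.78; 22 and 11 under median-of-ratios), where 39.4% of all genes were lower and 20.5% higher. TBX18, a T-box factor of mesenchyme and of hair dermal papilla in mice, had 2.86, 2.99 and 2.18 TPM in the sheath, against 82.6, 87.0 and 76.5 TPM in peripheral pulp (-4.50 ± 0.12 (SE), adjusted p = 1.7e-10). TBX4, which specifies the hindlimb, was listed at 0 in all sheath libraries, against 40.3, 54.4 and 49.5 TPM in peripheral pulp (adjusted p = 2.5e-09). EN1, a homeobox factor of ventral limb and dermis, had 2.59, 3.1 and 2.91 TPM in the sheath, against 48.1, 72.1 and 66.8 TPM in peripheral pulp (-4.02 ± 0.16, adjusted p = 2.4e-09). All 3 were at or near the bottom of the scale in each sheath library. EYA2, a coactivator in muscle and sensory development, was lower too (-5.81 ± 0.26, adjusted p = 6.2e-09), and IRX3 and IRX5, chosen after their values were seen, were among the higher factors (3.19 ± 0.33 and 3.07 ± 0.27 (SE)).

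HOX genes were lower in 17 and higher in 4 of 28 tested members (median -0.62), against 39.4% and 20.5% of all genes. The counts were 15 and 5 under median-of-ratios and 16 and 5 under quantile normalization. HOXA10, a posterior member, had 6.99, 8.19 and 4.25 TPM in the sheath, against 100.5, 96.5 and 82.2 TPM in peripheral pulp (-3.69 ± 0.17 (SE), adjusted p = 6.7e-09). HOXC10 had 70.4, 70.1 and 62.0 TPM in the sheath, against 312, 430.4 and 318 TPM in peripheral pulp (-2.36 ± 0.14, adjusted p = 4.2e-08). HOXA9, HOXC9, HOXB8 and HOXB6 were lower, with changes of -2.01 ± 0.17, -1.61 ± 0.18, -1.34 ± 0.14 and -1.03 ± 0.10 (SE). The higher members, named because they were few, were HOXD8, HOXD4, HOXA7 and HOXB4, with changes of 0.98 ± 0.20, 0.80 ± 0.20, 0.51 ± 0.08 and 0.38 ± 0.12 (SE). HOXB4 lost its call without pulp library 1 (0.30, adjusted p = 0.063).

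Epidermal transcripts were present in both dissected tissues and were more abundant in the sheath. Of 24 tested keratinocyte markers 18 were higher and 1 lower (median 1.98), and 22 were higher without pulp library 1 (median 2.48). Their summed level was 10986, 7428 and 9272 TPM in the sheath, against 2244, 722 and 869 TPM in peripheral pulp. KRT5, the basal keratin, had 4148, 2931 and 3874 TPM in the sheath, against 269.5, 105 and 144 TPM in peripheral pulp (4.49 ± 0.57 (SE), adjusted p = 6.7e-05). COL17A1, a hemidesmosome collagen, had 268, 226 and 261 TPM in the sheath, against 34.7, 14.3 and 26.2 TPM in peripheral pulp (3.36 ± 0.29, adjusted p = 1.9e-06). Pulp library 1 was the highest pulp library for both genes, but the groups did not overlap. DSP, desmoplakin, chosen after its values were seen, had 191, 165 and 159 TPM in the sheath, against 166, 18.3 and 18.9 TPM in peripheral pulp (2.11 ± 0.78, adjusted p = 0.039), and here pulp library 1 lay within the sheath range. Without that library the change of DSP was 3.14 ± 0.46 (SE, adjusted p = 0.00018). The number of lower members was 0 without sheath library 2 and 2 without pulp library 2. The part of epidermal cells in other differences was not tested. Keratins form a multigene family whose copies can share reads.

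Lymphatic markers were higher in the sheath in 6 of 6 tested members (median 3.29), with a summed level of 618 to 767 TPM in the sheath and 26.4 to 61.3 TPM in peripheral pulp. LYVE1, a hyaluronan receptor of lymphatic vessels and some macrophages, had 316, 318 and 403 TPM in the sheath, against 4.14, 4.45 and 6.73 TPM in peripheral pulp (5.84 ± 0.22 (SE), adjusted p = 2e-09). MMRN1 had 185, 183 and 229 TPM in the sheath, against 0, 1.28 and 3.65 TPM in peripheral pulp (6.50 ± 0.48, adjusted p = 6e-07). PROX1, the factor that defines lymphatic identity, had 4.93, 5.98 and 6.13 TPM in the sheath, against 1.13, 1.51 and 1.64 TPM in peripheral pulp (1.46 ± 0.20, adjusted p = 5e-05). The defining factor was low in absolute level but separated in every library.

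Blood vessel markers differed less than lymphatic ones. Of 13 tested endothelial members 6 were higher and 2 lower (median 0.22), against 20.5% and 39.4% of all genes. The counts were 8 and 2 under median-of-ratios, 7 and 2 under quantile normalization, and 5 and 4 without pulp library 1. The summed level overlapped, at 1334 to 1499 TPM in the sheath and 1006 to 1534 TPM in peripheral pulp. ERG, an endothelial transcription factor, was higher (0.93 ± 0.11 (SE), adjusted p = 2.2e-05), as was VWF (0.92 ± 0.19, adjusted p = 0.0013). APLNR, the apelin receptor of sprouting vessels, had 15.3, 17.7 and 18.3 TPM in the sheath, against 45.9, 61.6 and 59.2 TPM in peripheral pulp (-1.64 ± 0.12, adjusted p = 4.4e-07). SOX18 was the other lower member (-0.77 ± 0.16, adjusted p = 0.0014).

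Erythroid transcripts were higher in 5 of 6 tested members and lower in ALAS2 alone. HBBA, the adult beta-globin, had 1370.3, 1237 and 1109 TPM in the sheath, against 357, 494 and 913 TPM in peripheral pulp (1.18 ± 0.28 (SE), adjusted p = 0.0036). The summed erythroid level was 4076 to 4608 TPM in the sheath and spread from 1212 to 3165 TPM over the pulp libraries. ALAS2, the erythroid haem enzyme (-0.35 ± 0.11, adjusted p = 0.014), was not called under median-of-ratios (-0.14, adjusted p = 0.27) or quantile normalization (-0.19, adjusted p = 0.13). Its call was also lost without sheath library 1 (-0.29, adjusted p = 0.053), pulp library 2 (-0.28, adjusted p = 0.058) or pulp library 3 (-0.27, adjusted p = 0.057). The part of blood content in other differences was not tested.

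Leukocyte markers were lower in 15 and higher in 2 of 19 tested members (median -1.21), with a summed level of 619.6 to 658 TPM in the sheath and 1610.2 to 1903 TPM in peripheral pulp. PTPRC, the pan-leukocyte surface protein CD45, had 2.19, 3.34 and 3.8 TPM in the sheath, against 8.07, 11.3 and 16.6 TPM in peripheral pulp (-1.63 ± 0.28 (SE), adjusted p = 0.00035). C1QA, a complement subunit made by macrophages, had 68.0, 59.8 and 57.1 TPM in the sheath, against 186, 239 and 176 TPM in peripheral pulp (-1.68 ± 0.11, adjusted p = 1.3e-07). MRC1, the macrophage mannose receptor, went the other way with 38.5, 38.9 and 43.3 TPM in the sheath, against 0, 0.106 and 0.968 TPM in peripheral pulp (4.99 ± 0.24, adjusted p = 1.1e-08). C1QA was thus the lower in every sheath library, while MRC1 was near 0 in every pulp library. IL7R, a receptor of lymphocytes, was the other higher member, at 4.96 to 5.99 TPM in the sheath and 2.11 to 3 TPM in peripheral pulp. The members not called were the T cell genes CD3E (0.38 ± 0.24, adjusted p = 0.19) and CD3D (-0.23 ± 0.24, adjusted p = 0.43). The lower counts therefore do not extend to these T cell genes.

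Pigment cell genes were lower in 6 and higher in 1 of 8 tested members (median -2.67), with a summed level of 22.2 to 28.4 TPM in the sheath and 88.3 to 218 TPM in peripheral pulp. The birds belong to a white-feathered breed. MLANA, a melanosome protein, was listed at 0 in all sheath libraries, against 37.6, 82.4 and 44.3 TPM in peripheral pulp (adjusted p = 2.7e-08). PMEL and TYRP1 were listed at 0 in the sheath as well, against 14.3 to 58.3 TPM and 11.7 to 36.5 TPM in peripheral pulp (adjusted p = 7.5e-06 and 2e-05). Pulp library 2 was the highest for all 3 genes. TYR, the key pigment enzyme, had 0.0638, 0 and 0 TPM in the sheath, against 4.1, 8.74 and 5.52 TPM in peripheral pulp (-2.75 ± 0.24 (SE), adjusted p = 1.3e-06). The higher member was SOX10, which also marks Schwann cells, with 19.8, 25.0 and 19.8 TPM in the sheath, against 1.3, 3.05 and 3.06 TPM in peripheral pulp (2.74 ± 0.22, adjusted p = 7e-07).

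Schwann cell and nerve genes were higher in 10 and lower in 3 of 14 tested members (median 1.82), with a summed level of 464 to 515 TPM in the sheath and 296 to 320.2 TPM in peripheral pulp. Most of the sum in both tissues was PMP22, chosen after its values were seen. It had 310.4, 331 and 336 TPM in the sheath, against 207, 205 and 207 TPM in peripheral pulp (0.66 ± 0.09 (SE), adjusted p = 4.7e-05). NGFR, a neurotrophin receptor, had 30.3, 20.5 and 21.2 TPM in the sheath, against 0.912, 1.26 and 0 TPM in peripheral pulp (3.92 ± 0.32 (SE), adjusted p = 8.7e-07). CDH19 (1.82 ± 0.20, adjusted p = 8.5e-06) and the axonal neurofilament NEFL (2.48 ± 0.29, adjusted p = 1.8e-05) were higher. The lower members were UCH-L1 (-4.50 ± 0.28, adjusted p = 9.7e-08), a neuronal deubiquitinase, CNTN1 and S100B.

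**Figure D4:**
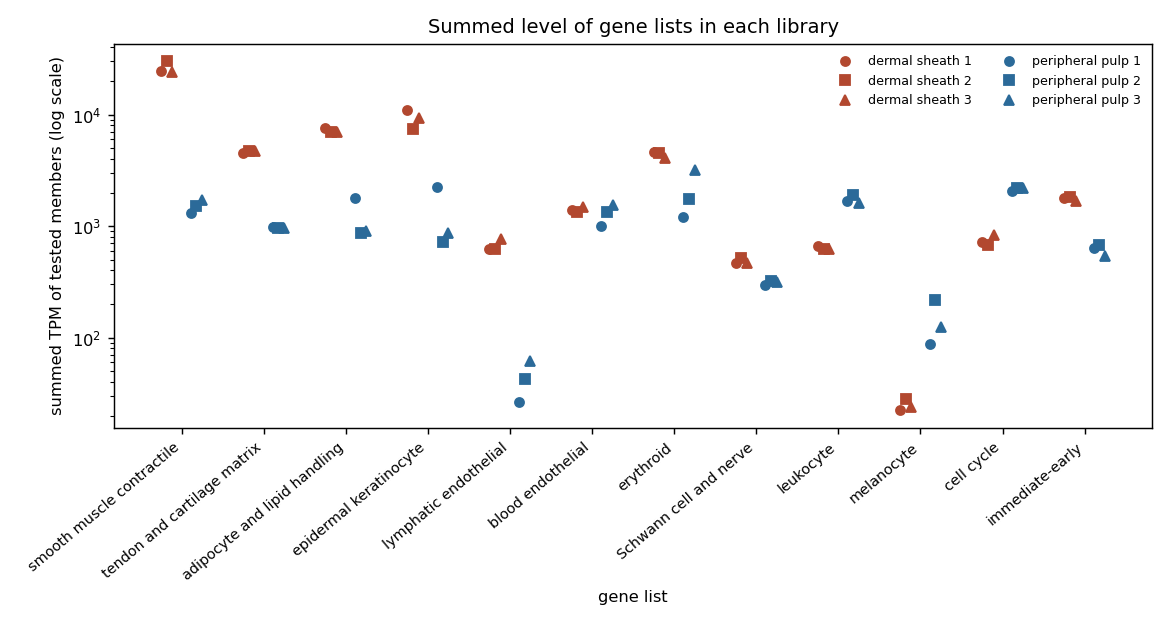
Summed level of the tested members of 12 gene lists (TPM, log scale) in each library, dermal sheath in red and peripheral pulp in blue, with 1 symbol per replicate number. Smooth muscle, tendon, adipocyte, keratinocyte and lymphatic sums lie above peripheral pulp in every sheath library, leukocyte, melanocyte and cell cycle sums lie below it, and blood endothelial sums overlap. Peripheral pulp library 1 is the highest pulp library for keratinocyte genes.

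Complement genes were higher in 4 and lower in 2 of 9 tested members, against 20.5% and 39.4% of all genes. C7, a component of the membrane attack complex, had 138, 156 and 158 TPM in the sheath, against 0, 0.00962 and 0 TPM in peripheral pulp (7.24 ± 0.21 (SE), adjusted p = 2.7e-10). CFD, adipsin, which starts the alternative pathway and is made by fat cells, had 353, 277 and 301 TPM in the sheath, against 17.5, 29.4 and 36.9 TPM in peripheral pulp (3.48 ± 0.20, adjusted p = 6e-08). MASP1, a lectin pathway protease, had 11.2, 12.2 and 12.8 TPM in the sheath, against 445, 516 and 522 TPM in peripheral pulp (-5.24 ± 0.10, adjusted p = 2.8e-11). C1R and C1S of the classical pathway were higher, with changes of 1.57 ± 0.15 and 1.20 ± 0.19 (SE), and C4 was lower (-0.97 ± 0.20, adjusted p = 0.0014).

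Immediate-early genes, which respond within minutes to growth factors, stress and mechanical stimuli, were higher in 13 and lower in 1 of 15 tested members (median 1.85). Their summed level was 1679 to 1806 TPM in the sheath and 537 to 677 TPM in peripheral pulp. ATF3, a stress-responsive factor, had 46.5, 154 and 114 TPM in the sheath, against 2.5, 3.01 and 4.34 TPM in peripheral pulp (4.49 ± 0.42 (SE), adjusted p = 4e-06). DUSP1, a phosphatase that damps MAP kinase signals, had 199, 222 and 214 TPM in the sheath, against 48.9, 33.0 and 22.0 TPM in peripheral pulp (2.65 ± 0.31, adjusted p = 2.5e-05). KLF2 (1.88 ± 0.18, adjusted p = 4e-06), NR4A3 (1.81 ± 0.21, adjusted p = 1.4e-05) and KLF6 (1.31 ± 0.09, adjusted p = 2.6e-07) were higher as well. The lower member was IER5, at 102 to 121 TPM in the sheath and 154 to 218 TPM in peripheral pulp.

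Housekeeping groups depended on the scaling. Of 60 tested ribosomal protein genes, 11 were higher and 12 lower as deposited, 33 and 2 under median-of-ratios and 2 and 26 under quantile normalization, so no direction is given for the family. Leaving out sheath library 1 or 2 gave 7 higher members, and leaving out pulp library 1 gave 7 lower members. Their summed level overlapped, at 104057 to 111931 TPM in the sheath and 106324 to 111706 TPM in peripheral pulp. RPLP1, of the ribosomal stalk, was lower under all 3 scalings, with 5094, 4526 and 4507 TPM in the sheath, against 7855, 9408 and 7281 TPM in peripheral pulp (-0.79 ± 0.10 (SE), adjusted p = 2.6e-05). RPS2 and RPL13 were called lower as deposited and not under median-of-ratios (adjusted p = 0.23 and 0.65). Glycolysis and hypoxia genes were higher in 6 and lower in 8 of 22 tested members, against 20.5% and 39.4% of all genes. The counts were 10 and 3 under median-of-ratios and 7 and 5 under quantile normalization. LDHB, a lactate dehydrogenase, had 973, 1052 and 972 TPM in the sheath, against 2515, 2927 and 2115 TPM in peripheral pulp (-1.32 ± 0.11, adjusted p = 8.1e-07). ALDOC, an aldolase, had 1064, 1172 and 919 TPM in the sheath, against 499, 486 and 489 TPM in peripheral pulp (1.09 ± 0.10, adjusted p = 2.6e-06). Both enzymes kept their call under both rescalings.

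**Figure D5:**
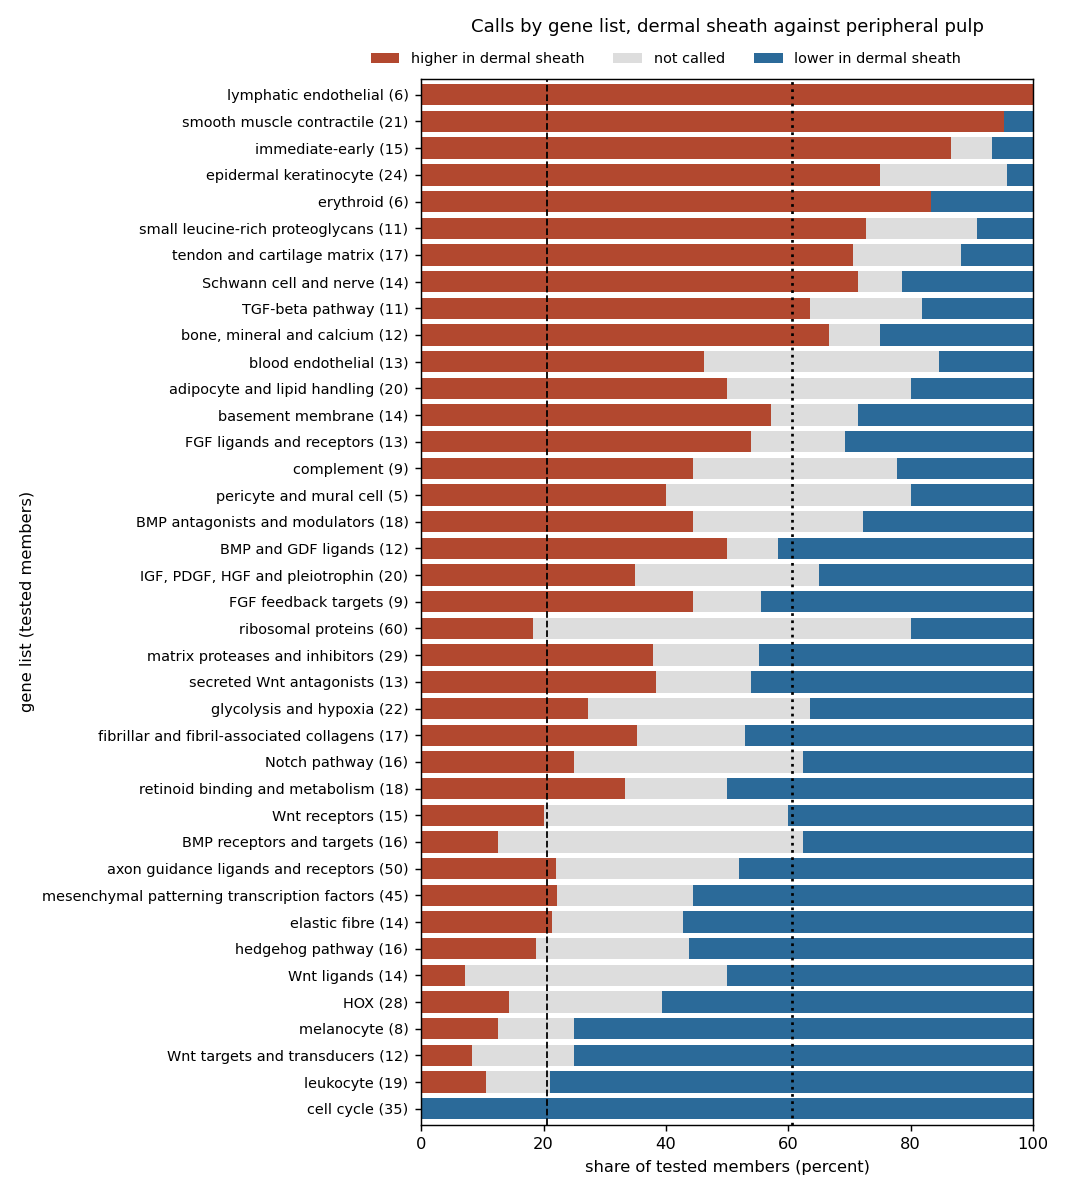
Share of the tested members of each gene list (percent, member number in brackets) called higher in the dermal sheath than in peripheral pulp (red), not called (grey) and called lower (blue). The dashed line is the share of all 13537 genes called higher (20.5%), and the dotted line marks, from the right edge, the share called lower (39.4%). Lymphatic and smooth muscle lists are almost wholly red and the cell cycle list wholly blue.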

How the data were processed

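TRIzol was used for RNA extraction and a TruSeq RNA kit for the libraries, per the labels. The authors deposited 1 table for the 12 libraries of early growth tissue, with 1 TPM value per gene and library. The submitters' processing notes name TopHat2 2.1.1, Cufflinks and Cuffdiff without a role, and neither these nor the labels name a genome build or annotation (not given in the sources used here). Coordinates and sequences are therefore left out. TPM values keep no depth and are not counts. An exact 0 is reported as listed at 0, with no fold change where a whole group is at 0.

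A gene entered at 1 TPM or more in 3 or more of the 6 libraries. Values were tested as log2(TPM + 1), with a pseudocount of 1, in limma 3.58.1 (R 4.3.3). A group-means model over the 12 libraries was used, with 8 residual degrees of freedom, and variances were moderated with a mean trend and robust shrinkage. P-values were two-sided, adjusted by the Benjamini-Hochberg method over all 13537 genes and called under 0.05. On simulated data with 200 changed genes among 13537, the fit found 91% of the 2-fold changes and 96% of the 4-fold changes. False calls made up 7.43% of all calls. The simulation changed far fewer genes than the 8110 called in the data, so these rates may not hold for this comparison. Groups and replicate numbers came from the labels.

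The comparison, the 41 gene lists (1013 entries) and the named genes were chosen with earlier results of these data known. Of the entries, 729 matched by symbol and 1 by another spelling (UCH-L1). Of these 723 passed the entry rule and were tested, and the rest were not analysed here. The 15 largest and 15 smallest changes were named, over called genes that had a symbol, averaged 10 TPM or more in the higher group and did not overlap between groups. In each list the 6 members with the lowest p-values, or fewer, were added, with ASIP, PCP4, HBBA, KRT5 and PTPRC. Genes outside this rule are said to be chosen after their values were seen, or are the few members that went against their list. A few genes taken by this rule are not reported here. Lists are described by counts and medians, without a set test. Names that were spreadsheet dates (16) or occurred more than once (14) were not described, and 3267 Ensembl identifiers were tested where they passed the filter but not named.

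The alternatives covered scaling (median-of-ratios, quantile), the filter (none, or 5 TPM), the pseudocount (0.1), plain variances, the fit (6 libraries only, replicate number as a block) and the omission of single libraries.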

Additional observations from a re-analysis of the deposited data

How the results depend on the processing

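The counts of genes called in each direction, also with at least a 2-fold change, stayed within 1.5 times of the reported values under all 15 alternatives. Leaving out 1 library gave 2498 to 2772 higher and 4867 to 5235 lower genes. With a fit on only the 6 libraries there were 2532 and 4882, with a filter at 5 TPM 2462 and 4698, and with a pseudocount of 0.1 2717 and 5266. The share of calls that were higher was 34.2% as deposited, 49.5% under median-of-ratios and 46.1% under quantile normalization. Of the genes lower as deposited, 1482 were not called under median-of-ratios, and 1005 genes not called as deposited became higher.

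Replicates with the same number did not deviate together (r of -0.036, 0.032 and -0.0291 across genes). So few libraries cannot tell whether same-numbered samples shared a bird, and the main fit treated the samples as unpaired. With the replicate number as a block there were 8181 calls, 2794 higher and 5387 lower, and on the 6 libraries alone 6793, 2386 higher and 4407 lower.

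Of 239 named genes with a fold change, none reversed, and 7 lost their call in at least 1 alternative (among them ALAS2, CDKN1A, MB, NRARP, RPL13 and RPS2). At the 5 TPM filter 234 of them were tested. CDKN1A and ALAS2 also lost their calls in the fit on 6 libraries (adjusted p = 0.056 each). None of the 13 named genes listed at 0 in a whole group lost its call. Of 82 list counts, 16 moved by more than 1.5 times in at least 1 alternative, 11 of them under median-of-ratios. The cause was not tested. Unknown depth limits what can be said of genes near 1 TPM, and 3 libraries per tissue limit the spread estimate.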

Other observations

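Further genes, chosen after their values were seen, gave sets not described above, and no test is attached to the sets. Genes that make, regulate or recycle tetrahydrobiopterin, an enzyme cofactor, were mostly lower in the sheath: of 7 tested genes 5 were lower, 1 higher and 1 not called. GCH1, which makes the first committed step, had 2.03, 2.05 and 2.89 TPM in the sheath, against 325, 314 and 272 TPM in peripheral pulp (log2 fold change of -6.53 ± 0.20 (SE), adjusted p = 3.1e-10). QDPR, which recycles the cofactor, had 78, 79 and 89 TPM in the sheath, against 3104, 2953 and 2170.0 TPM in peripheral pulp (-5.03 ± 0.18, adjusted p = 1.4e-09). SPR, PCBD1 and GCHFR were lower (-1.40 ± 0.11, -1.24 ± 0.10 and -1.11 ± 0.24 (SE)), PCBD2 was higher (0.38 ± 0.10), and PTS was not called (0.28 ± 0.15, adjusted p = 0.13).

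Neuropeptide precursors were higher in 2, lower in 4 and not called in 1 of 7 tested genes. PENK, the enkephalin precursor, had 267, 269 and 339.6 TPM in the sheath, against 12192, 9105 and 11222 TPM in peripheral pulp (-5.21 ± 0.15, adjusted p = 2.7e-10). PRLH was listed at 0 in all sheath libraries, against 27.1 to 46.6 TPM in peripheral pulp. NPY had 30.5, 28 and 24.8 TPM in the sheath, against 0, 0 and 2.96 TPM in peripheral pulp (4.18 ± 0.58, adjusted p = 8.3e-05), and CRH was also higher (3.51 ± 0.32, adjusted p = 2.4e-06).

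Steroid genes were higher in 2, lower in 3 and not called in 1 of 6 tested genes. ESR1, an oestrogen receptor, had 1.2, 0.0508 and 2.25 TPM in the sheath, against 139.6, 185 and 187 TPM in peripheral pulp (-6.44 ± 0.31, adjusted p = 1.9e-08). HSD3B1, an enzyme of steroid hormone synthesis, had 22.9, 20.9 and 20.7 TPM in the sheath, against 0.0555, 0.0553 and 0.114 TPM in peripheral pulp (4.39 ± 0.16, adjusted p = 1.3e-09). LHCGR, the luteinizing hormone receptor, was lower (-5.36 ± 0.19, adjusted p = 8e-10). Beside OSTN, the natriuretic peptide receptors NPR2 (2.69 ± 0.27, adjusted p = 5.3e-06) and NPR3 (0.79 ± 0.31, adjusted p = 0.047) were higher, and CORIN, which cleaves natriuretic peptide precursors, was lower (-6.00 ± 0.18, adjusted p = 3.1e-10).

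Several abundant genes belonged to no list. GSN, the actin-severing gelsolin, had 9025, 9851 and 9098 TPM in the sheath, against 376, 330.4 and 276 TPM in peripheral pulp (4.84 ± 0.14, adjusted p = 3.1e-10). AKR1B10L2, an aldo-keto reductase, had 106, 107 and 109.6 TPM in the sheath, against 2178, 4430.1 and 5719 TPM in peripheral pulp (-5.14 ± 0.30, adjusted p = 1e-07). BARX2, a homeobox factor of muscle and skin appendages, had 274, 224 and 286 TPM in the sheath, against 1.96, 1.3 and 5.5 TPM in peripheral pulp (6.21 ± 0.36, adjusted p = 8.3e-08).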
